A study of Arabidopsis thaliana with 4 samples.

Results

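The genes described here are 41 nuclear genes of *Arabidopsis thaliana* that encode the light-harvesting antenna, the nuclear subunits of photosystems I and II and the small subunit of Rubisco. They were chosen by function, as fixed locus identifiers, and all 41 were found among the 33544 genes listed. They fall into 17 antenna genes (4 *LHCA* and 13 *LHCB*), 10 photosystem I genes, 10 photosystem II genes and 4 *RBCS* genes. Polyadenylated RNA was sequenced from whole seedlings aged 14 days, of wild-type Col-0 and of *ect2*, a line in the Col-0 background with a T-DNA insertion in *ECT2*. The ECT2 protein carries a YTH domain and recognises m6A, adenosine methylated at its N6 position, on transcripts. Each genotype had 2 libraries, numbered 1 and 2, all from seedlings kept under normal growth conditions in long days, on diluted Murashige and Skoog medium or soil; which of these a library came from is not given. The labels describe the allele only as a T-DNA insertion, and they do not say whether a library pools seedlings or whether replicates were grown apart. The p-values therefore rest on the spread between these libraries, which may be technical. In the test used, the spread of each gene is drawn towards that of all genes.

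Light captured by chlorophyll on antenna proteins drives charge separation in the photosystems. Rubisco fixes carbon dioxide in the Calvin cycle, which uses the energy gained. The chloroplast genome encodes the reaction centres and the large subunit of Rubisco, while the nucleus encodes the antenna, most peripheral subunits and the small subunit. The nuclear genes are known to respond together to light, sugars, the circadian clock and signals from the chloroplast, and in leaves their mRNAs are among the most abundant.

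The values are taken to be FPKM, fragments scaled by transcript length and by the library's mapped total, so levels can be compared between genes. Between libraries they compare less directly, because the summed values differ. The nuclear protein-coding total was 1.57e+06 and 1.80e+06 FPKM in Col-0 (replicates 1 and 2), and 1.48e+06 and 1.86e+06 FPKM in *ect2*. A gap in FPKM between libraries includes this difference in totals. All 41 genes were highly expressed. Ranked by mean FPKM over the 4 libraries among 26690 nuclear protein-coding genes, 39 of the 41 stood within the top 100, and the lowest, *PSBO2*, was at rank 113. Together they made up 13.5% and 13.1% of all nuclear protein-coding FPKM in Col-0 replicates 1 and 2, and 14.5% and 13.2% in *ect2* replicates 1 and 2. The number of genes at 1 FPKM or more ran from 18908 to 19114 per library. Reads per library are not given. The most frequent ratio among the lowest values put the depth of Col-0 replicate 1 at 1.45, of *ect2* replicate 1 at 1.39 and of *ect2* replicate 2 at 0.966 relative to Col-0 replicate 2. For the targeted gene *ECT2* (AT3G13460), Col-0 libraries gave 137 and 76.7 FPKM, and *ect2* libraries 9.07 and 8.58 FPKM, far below. Its difference on log2(FPKM + 1) was -3.40 ± 0.33 (SE, n = 2 per genotype; limma, adjusted p = 0.153).

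Several members are close copies, and reads that match more than 1 copy make their separate values uncertain. *LHCB1.1* (AT1G29920, chromosome 1, 10474656 to 10475969, minus strand), *LHCB1.2* (AT1G29910, 10472280 to 10473502, minus strand) and *LHCB1.3* (AT1G29930, 10477885 to 10479114, plus strand) lie side by side and each has 1 exon. Their coding sequences of 804 bases were 95.6% to 96.4% identical in pairs, differing at 47 positions over the trio. *LHCB2.1* and *LHCB2.2* were 96.6% identical, with an unbroken identical run of 152 bases. *RBCS1B* (AT5G38430, chromosome 5, 15383167 to 15385320), *RBCS2B* (AT5G38420, 15380907 to 15382071) and *RBCS3B* (AT5G38410, 15376988 to 15378642) lie in a row on the minus strand. Their coding sequences of 546 bases were 96.7% to 97.3% identical, and *RBCS1B* and *RBCS3B* shared a run of 233 bases. *RBCS1A* (AT1G67090, chromosome 1, 25048158 to 25049667, minus strand) was 89.9% to 90.1% identical to these 3. Positions and sequences are from RefSeq, build TAIR10.1. The sources used here do not say how reads with several matches were counted. The stretches below show how few positions separate the copies. They are the 60 coding bases with the most differences, bases 25 to 84 from the start codon for *LHCB1* and 91 to 150 for *RBCS*, with positions that vary within the trio in capitals.
LHCB1.1: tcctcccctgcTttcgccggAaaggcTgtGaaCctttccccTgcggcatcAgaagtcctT
LHCB1.2: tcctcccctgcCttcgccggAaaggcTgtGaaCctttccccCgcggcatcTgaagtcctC
LHCB1.3: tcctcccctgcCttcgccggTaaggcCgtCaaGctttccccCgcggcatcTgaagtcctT
RBCS1B: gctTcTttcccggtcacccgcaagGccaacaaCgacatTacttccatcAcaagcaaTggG
RBCS2B: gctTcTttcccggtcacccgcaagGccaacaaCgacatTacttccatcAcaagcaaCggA
RBCS3B: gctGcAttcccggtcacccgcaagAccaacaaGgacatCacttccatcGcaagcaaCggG
Each trio differed at 8 of the 60 positions shown.

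The 250 bases upstream of the annotated start were searched on both strands for the G-box (CACGTG), the I-box (GATAAG), the CCAAT box (CCAAT) and the TATA box (TATAAA), elements described in promoters of light-regulated plant genes. None of these motifs contains another. The CCAAT box was present upstream of 16 of 17 antenna genes, all but *LHCB6*, and the occurrence nearest the start began between 5 and 214 bases upstream, with a median of 70. Of 27561 nuclear protein-coding promoters, 46.1% held it. It was found in 6 of 10 photosystem I, 2 of 10 photosystem II and 2 of 4 *RBCS* promoters. The G-box was found in 8 of 41 member promoters and in 6.46% of all promoters. The I-box was found in 10 of 41 and in 12.3% of all. The TATA box was found in 17 of 41 members (41.5%) and in 47.3% of all. Annotated starts can lie upstream of the start used in leaves, and a match is a description of letters, not of a bound site. Shown here, with CCAAT, G-box and I-box matches on either strand in capitals, are the antenna genes *LHCB1.3*, of highest level, and *LHCA4*, with the most CCAAT boxes, and *RBCS2B*, the member with the widest range between libraries. The windows are chr1:10477635-10477884 (plus strand), chr3:17495034-17495283 (minus strand) and chr5:15382072-15382321 (minus strand), in TAIR10.1.
LHCB1.3: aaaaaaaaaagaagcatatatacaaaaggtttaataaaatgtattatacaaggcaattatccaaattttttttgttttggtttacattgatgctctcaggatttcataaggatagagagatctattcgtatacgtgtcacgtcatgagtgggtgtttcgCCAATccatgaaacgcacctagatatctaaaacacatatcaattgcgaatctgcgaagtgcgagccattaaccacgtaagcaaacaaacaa
LHCA4: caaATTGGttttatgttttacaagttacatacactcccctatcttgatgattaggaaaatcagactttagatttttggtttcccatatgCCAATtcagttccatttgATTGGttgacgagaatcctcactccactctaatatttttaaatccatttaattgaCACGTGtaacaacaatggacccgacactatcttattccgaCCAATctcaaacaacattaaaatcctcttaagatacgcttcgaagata
RBCS2B: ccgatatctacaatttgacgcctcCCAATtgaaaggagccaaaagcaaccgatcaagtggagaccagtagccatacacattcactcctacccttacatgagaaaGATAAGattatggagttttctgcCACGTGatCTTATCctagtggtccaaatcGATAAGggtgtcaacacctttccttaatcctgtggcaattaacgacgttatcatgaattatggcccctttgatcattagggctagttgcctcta
The *LHCB1.3* window held 1 CCAAT box. The *LHCA4* window held 4 CCAAT boxes and a G-box. The *RBCS2B* window held a G-box, 3 I-boxes around it and 1 CCAAT box farther upstream.

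The comparison of *ect2* with Col-0 asks whether transcript levels differ when this m6A reader is disrupted. Among the members, *LHCA* and *LHCB1* genes had higher means in *ect2*, while *LHCB2*, most photosystem and all *RBCS* genes had lower ones, and none of these differences passed the test. limma, on log2(FPKM + 1) with Benjamini-Hochberg adjustment over all 19308 genes tested, called 0 of the 41, with adjusted p between 0.842 and 0.999. At an unadjusted p below 0.05 the count was also 0. Over all genes it called 5, or 0.0259%, and 938, or 4.86%, had an unadjusted p below 0.05. Even *ECT2*, at a log2 difference of -3.40, was not called (limma, adjusted p = 0.153). The 0 calls therefore say little about the much smaller differences of the members. Without the intensity trend and robust estimation, limma also called 0 members. All 41 passed the filter on low values, 1 FPKM in at least 2 libraries, by a wide margin.

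The sizes of difference can be bounded for most members. The 95% interval of the difference, not adjusted for the number of genes, lay within 2-fold either way for 32 of 41 genes. The 9 with wider intervals were *LHCB1.4*, *LHCB1.5*, *LHCB2.3*, *LHCB4.2*, *PSBS*, *PSBX*, *RBCS1A*, *RBCS1B* and *RBCS2B*. In 6 of 41 genes both *ect2* libraries lay above both Col-0 libraries, against 17.5% of all genes tested. In another 6 both lay below, against 20.2% of all genes. The difference exceeded the gap between replicates in both genotypes for *LHCA3* and *LHCB1.2* only, 2 of 41, against 23.7% of all genes.

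**Figure D1:**
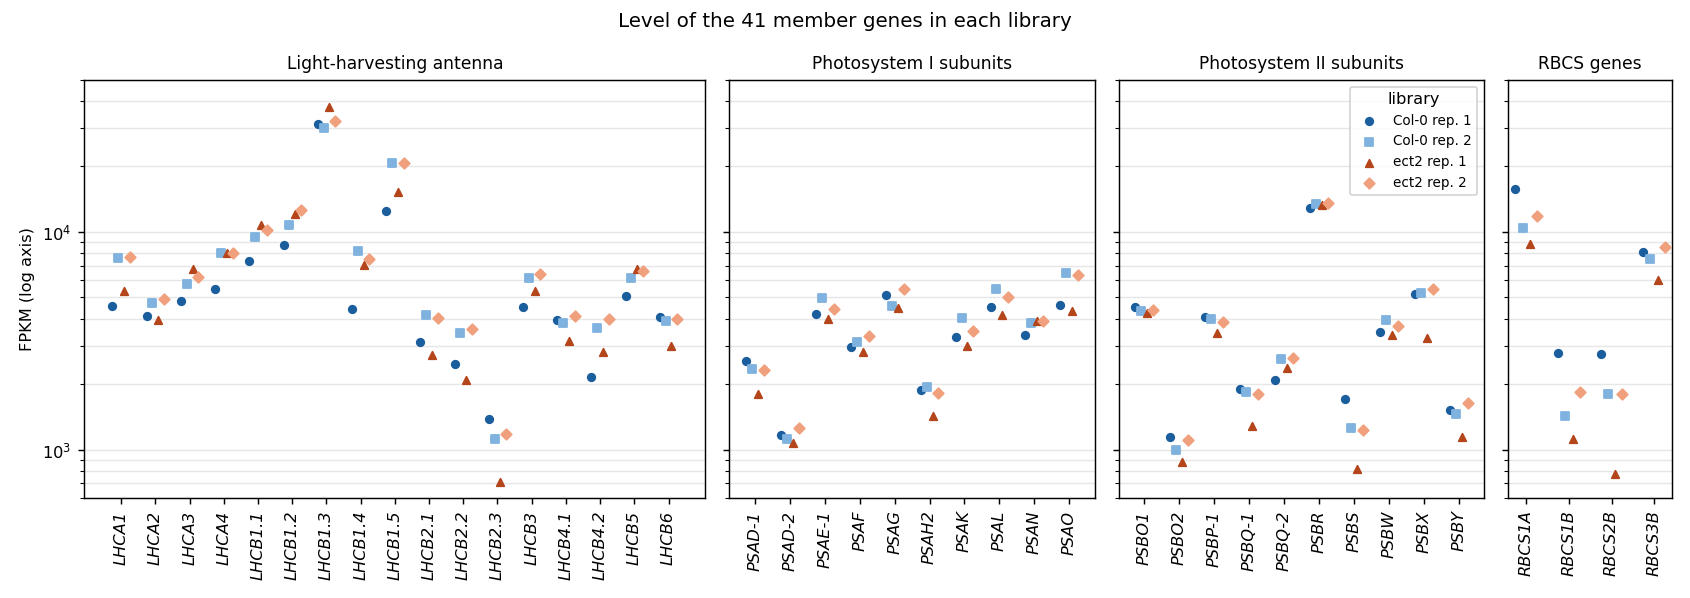
FPKM of each of the 41 genes (log axis) in each of the 4 libraries, in panels by function; each symbol is 1 library. Antenna genes such as *LHCA1* and *LHCB1.4* were lowest in Col-0 replicate 1, while all 4 *RBCS* genes were lowest in *ect2* replicate 1.

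The *LHCA* genes encode the belt of antenna proteins bound to photosystem I. *LHCA1* (AT3G54890) had 4592 and 7617 FPKM in the Col-0 libraries, then 5376 and 7693 FPKM in the *ect2* libraries. *LHCA4* (AT3G47470), whose protein pairs with that of *LHCA1*, measured 5457 and 8004 FPKM in Col-0 against 7959 and 7984 FPKM in *ect2*. For both, Col-0 replicate 1 was the lowest library and the genotypes overlapped. *LHCA3* (AT1G61520) had 4802 and 5789 FPKM in the Col-0 libraries, then 6772 and 6198 FPKM in the *ect2* libraries, with no overlap. Its log2 difference was 0.30 ± 0.24 (SE; limma, adjusted p = 0.844). *LHCA2* (AT3G61470) measured 4113 and 4712 FPKM in Col-0 against 3947 and 4924 FPKM in *ect2*, so the *ect2* libraries enclosed the Col-0 ones. All 4 differences were above 0, with a median of 0.20, except that *LHCA2*, at 0.0020, fell below 0 with library medians set equal. None passed the test, and without Col-0 replicate 1 the median was -0.051, with a positive difference left in *LHCA3* alone.

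*LHCB1* and *LHCB2* encode the major trimeric antenna of photosystem II, LHCII. *LHCB1.3* was the member of highest level, at 31434 and 30143 FPKM in Col-0 against 37421 and 32442 FPKM in *ect2*, and had rank 3 among all nuclear protein-coding genes. *LHCB1.2* had 8716 and 10708 FPKM in the Col-0 libraries, then 12147 and 12649 FPKM in the *ect2* libraries. *LHCB1.1* measured 7375 and 9466 FPKM in Col-0 against 10803 and 10218 FPKM in *ect2*. In these 3 neighbouring genes both *ect2* libraries lay above both Col-0 libraries. The largest of their log2 differences, in *LHCB1.2*, was 0.36 ± 0.25 (SE; limma, adjusted p = 0.843), with a 95% interval from -0.26 to 0.98. *LHCB1.4* (AT2G34430) had 4431 and 8199 FPKM in the Col-0 libraries, then 7012 and 7539 FPKM in the *ect2* libraries. *LHCB1.5* (AT2G34420) measured 12535 and 20650 FPKM in Col-0 against 15301 and 20730 FPKM in *ect2*. In both, Col-0 replicate 1 was the lowest library, and their differences were negative without it, at -0.17 and -0.21. The median log2 difference of the 5 *LHCB1* genes was 0.27 over all libraries and 0.15 without Col-0 replicate 1, and none passed the test in either.

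The *LHCB2* genes lay lower, and on the other side of 0. *LHCB2.1* (AT2G05100) had 3107 and 4163 FPKM in the Col-0 libraries, then 2707 and 4015 FPKM in the *ect2* libraries. *LHCB2.2* (AT2G05070) measured 2485 and 3432 FPKM in Col-0 against 2085 and 3565 FPKM in *ect2*. *LHCB2.3* (AT3G27690) had 1380 and 1118 FPKM in the Col-0 libraries, then 710 and 1185 FPKM in the *ect2* libraries. In all 3 genes *ect2* replicate 1 was the lowest library and the genotypes overlapped. Their median log2 difference was -0.13, and with a library left out it ran from -0.49 without *ect2* replicate 2 to 0.16 without *ect2* replicate 1. It was also negative, at -0.33, with Col-0 replicate 1 omitted, and positive, at 0.085, with Col-0 replicate 2 omitted. The ratio of summed *LHCB1* to summed *LHCB2* FPKM was 9.25 and 9.09 in Col-0 and 15.0 and 9.54 in *ect2*, so replicate 1 of *ect2* stood apart from the other 3 libraries. Within *LHCB1*, the shares of the copies moved between libraries too. *LHCB1.3* took 48.7% and 38.1% of the *LHCB1* sum in Col-0 and 45.3% and 38.8% in *ect2*, a larger share in replicate 1 of either genotype.

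*LHCB3*, a further LHCII protein, and *LHCB4*, *LHCB5* and *LHCB6*, which encode the monomeric antenna CP29, CP26 and CP24 next to the core, had no common direction. *LHCB5* (AT4G10340) measured 5060 and 6171 FPKM in Col-0 against 6742 and 6605 FPKM in *ect2*, without overlap. Its log2 difference was 0.26 ± 0.24 (SE; limma, adjusted p = 0.856). *LHCB4.2* (AT3G08940) had 2146 and 3627 FPKM in the Col-0 libraries, then 2814 and 3976 FPKM in the *ect2* libraries, with Col-0 replicate 1 lowest. Its copy *LHCB4.1* (AT5G01530) had 3925 and 3820 FPKM in Col-0 against 3165 and 4107 FPKM in *ect2*, with *ect2* replicate 1 lowest by FPKM. *LHCB6* (AT1G15820) measured 4054 and 3890 FPKM in Col-0 against 2998 and 3982 FPKM in *ect2*. *LHCB3* (AT5G54270) had 4532 and 6160 FPKM in Col-0 against 5336 and 6428 FPKM in *ect2*. The genotypes overlapped in these 4 genes. Over the 17 antenna genes, 12 differences were positive and 5 negative, with a median of 0.15, beside 48.8% positive and a median of -0.0096 over all genes tested. With library medians set equal, 11 were positive, and with quantile normalization 13. Without Col-0 replicate 1 the count was 5 positive and 12 negative, with a median of -0.096. That library was the lowest of the 4 for 10 of the 17.

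**Figure D2:**
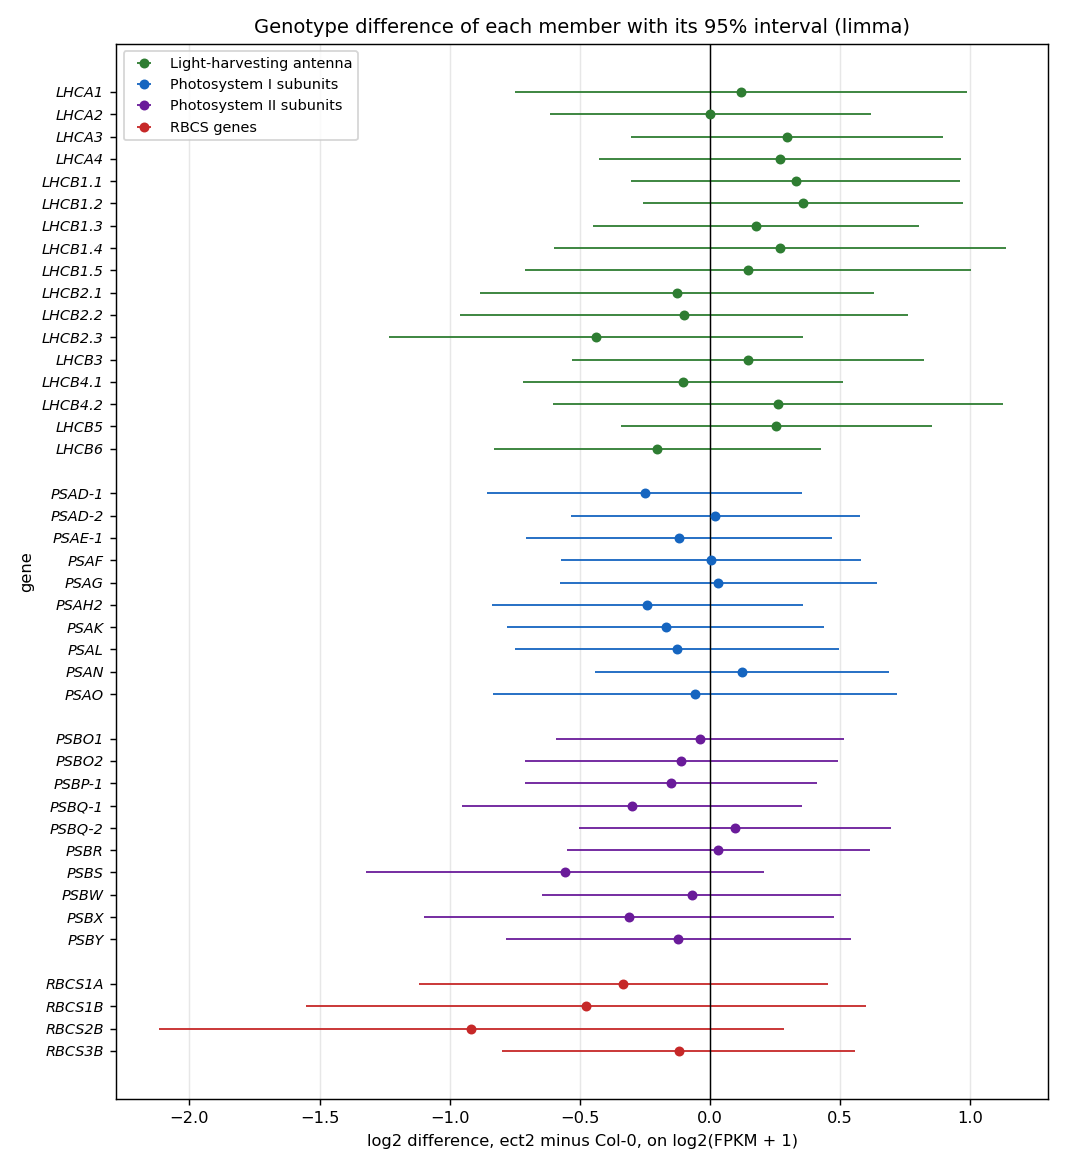
Log2 difference of each gene between *ect2* and Col-0 on log2(FPKM + 1), with its 95% interval from limma, coloured by function. Every interval crosses 0, and the widest is that of *RBCS2B*, from -2.12 to 0.29.

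None of the 10 photosystem I members differed by more than 1.49-fold between its highest and lowest library, beside up to 1.94-fold in the antenna, 2.11-fold in photosystem II and 3.56-fold in *RBCS*. *PSAD-1* (AT4G02770), 1 of a pair of genes for the subunit that docks ferredoxin on the stromal side, had 2541 and 2336 FPKM in the Col-0 libraries, then 1811 and 2317 FPKM in the *ect2* libraries. *PSAH2* (AT1G52230), for a subunit at the docking site of mobile LHCII, measured 1875 and 1939 FPKM in Col-0 against 1426 and 1827 FPKM in *ect2*. In both, the *ect2* libraries lay below the Col-0 ones, replicate 2 only just. Their log2 differences were -0.25 ± 0.24 and -0.24 ± 0.24 (SE; limma, adjusted p = 0.857 and 0.860). *PSAN* (AT5G64040), for a lumenal subunit on the plastocyanin side, had 3350 and 3823 FPKM in the Col-0 libraries, then 3907 and 3895 FPKM in the *ect2* libraries, the other way round. *PSAO* (AT1G08380), also at the LHCII docking side, measured 4630 and 6445 FPKM in Col-0 against 4333 and 6361 FPKM in *ect2*. It was higher in replicate 2 of either genotype, by more than the genotypes differed. *PSAD-2* (AT1G03130), the second PSAD gene, had 1164 and 1121 FPKM in Col-0 against 1072 and 1254 FPKM in *ect2*. *PSAE-1* (AT4G28750), for another stromal subunit, had 4205 and 4964 FPKM in Col-0 against 3999 and 4421 FPKM in *ect2*. Neither gene separated the genotypes. *PSAF* (AT1G31330), whose protein binds plastocyanin, had 2948 and 3133 FPKM in Col-0 against 2799 and 3325 FPKM in *ect2*. *PSAL* (AT4G12800), for a subunit beside PSAH, had 4540 and 5494 FPKM in Col-0 against 4156 and 5037 FPKM in *ect2*. In both, *ect2* replicate 1 was the lowest library. *PSAG* (AT1G55670) and *PSAK* (AT1G30380) encode related subunits at the edges of the core. *PSAG* had 5145 and 4547 FPKM in Col-0 against 4467 and 5490 FPKM in *ect2*. *PSAK* had 3303 and 4022 FPKM in Col-0 against 2987 and 3517 FPKM in *ect2*. In these 6 genes the genotypes overlapped, and log2 differences ran from -0.17 in *PSAK* to 0.034 in *PSAG*. Over the 10 genes, 4 differences were positive and 6 negative, with a median of -0.089, which became 0.030 with quantile normalization. Without *ect2* replicate 1, by FPKM the lowest library for 9 of the 10, the median was 0.067.

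Among photosystem II genes, *PSBR* and *PSBO1* hardly differed between libraries. *PSBR* (AT1G79040), for a lumenal subunit that helps to bind the oxygen-evolving proteins, had 12814 and 13436 FPKM in the Col-0 libraries, then 13283 and 13573 FPKM in the *ect2* libraries. *PSBO1* (AT5G66570), the main gene of the manganese-stabilizing protein, measured 4514 and 4316 FPKM in Col-0 against 4245 and 4365 FPKM in *ect2*. Their highest and lowest libraries differed 1.06-fold each, the narrowest ranges of all 41 genes. Their log2 differences were 0.033 ± 0.23 and -0.036 ± 0.22 (SE; limma, adjusted p = 0.983 and 0.980). *PSBP-1* (AT1G06680) had 4049 and 3986 FPKM in the Col-0 libraries, then 3416 and 3847 FPKM in the *ect2* libraries. *PSBQ-1* (AT4G21280) measured 1897 and 1846 FPKM in Col-0 against 1278 and 1810 FPKM in *ect2*. Both encode extrinsic proteins of the oxygen-evolving complex, and in both the *ect2* libraries lay below the Col-0 ones by FPKM. *PSBO2* (AT3G50820), the second copy of PSBO, had 1142 and 996 FPKM in Col-0 against 880 and 1111 FPKM in *ect2*. *PSBQ-2* (AT4G05180), the second copy of PSBQ, had 2098 and 2609 FPKM in Col-0 against 2376 and 2637 FPKM in *ect2*. These copies had overlapping genotypes and log2 differences of -0.11 and 0.097.

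*PSBS* (AT1G44575), which encodes the sensor of lumen acidity needed for energy-dependent quenching of excess light, varied more. It had 1717 and 1262 FPKM in the Col-0 libraries, then 815 and 1230 FPKM in the *ect2* libraries. The *ect2* libraries lay below the Col-0 ones, but the replicate 2 libraries were close to each other, and the gap lay between a high Col-0 replicate 1 and a low *ect2* replicate 1. Its log2 difference was -0.56 ± 0.31 (SE; limma, adjusted p = 0.842), and between -0.85 and -0.26 with a library left out. *PSBX* (AT2G06520), for a small membrane subunit, measured 5185 and 5266 FPKM in Col-0 against 3244 and 5473 FPKM in *ect2*, so a single library stood low. *PSBW* (AT2G30570), for another small membrane subunit, had 3463 and 3952 FPKM in Col-0 against 3347 and 3714 FPKM in *ect2*. *PSBY* (AT1G67740), likewise for small membrane proteins, had 1525 and 1452 FPKM in Col-0 against 1139 and 1643 FPKM in *ect2*. These genes had log2 differences of -0.069 and -0.12, with overlapping genotypes. Over the 10 photosystem II genes, 2 differences were positive and 8 negative, with a median of -0.12, beside 51.2% negative over all genes tested. Without *ect2* replicate 1, by FPKM the lowest library for 8 of the 10, there were 6 positive and 4 negative, with a median of 0.027.

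The *RBCS* genes encode the small subunit of Rubisco, which is imported into the chloroplast to join the large subunit. *RBCS1A*, the most abundant copy, had 15700 and 10477 FPKM in the Col-0 libraries, then 8790 and 11817 FPKM in the *ect2* libraries. *RBCS3B* measured 8058 and 7515 FPKM in Col-0 against 6031 and 8520 FPKM in *ect2*. *RBCS1B* had 2789 and 1420 FPKM in the Col-0 libraries, then 1114 and 1838 FPKM in the *ect2* libraries. In these 3 genes the genotypes overlapped. *RBCS2B* measured 2754 and 1808 FPKM in Col-0 against 774 and 1803 FPKM in *ect2*. Its genotypes did not overlap, but replicate 2 of *ect2* and of Col-0 nearly coincided.

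All 4 *RBCS* genes had lower means in *ect2*, and none passed the test. The log2 difference of *RBCS2B* was -0.92 ± 0.47 (SE; limma, adjusted p = 0.842), the largest of the 41. Its values spanned 3.56-fold between libraries, also the widest range of the 41. *RBCS1B* differed by -0.48 ± 0.43, *RBCS1A* by -0.33 ± 0.32 and *RBCS3B* by -0.12 ± 0.27 (SE; limma, adjusted p = 0.852, 0.856 and 0.943). The group median was -0.40. It was -0.054 with replicate 1 of Col-0 left out and -0.12 with replicate 1 of *ect2* left out, but -0.79 and -0.69 with replicate 2 of Col-0 or of *ect2* left out, so leaving out either replicate 1 library brought it nearer to 0. *RBCS2B* made up 9.40% and 8.52% of the *RBCS* sum in Col-0 and 4.63% and 7.52% in *ect2*. *RBCS1A* made up 53.6% and 49.4% in Col-0 and 52.6% and 49.3% in *ect2*. The copies *RBCS1B* to *RBCS3B* share long identical stretches, as shown above, so a shift between them is uncertain. Summed over the 4 genes, the level was 25261 ± 5714 FPKM for Col-0 and 20344 ± 5140 FPKM for *ect2* (mean ± SD, n = 2 per genotype), a difference smaller than either SD.

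**Figure D3:**
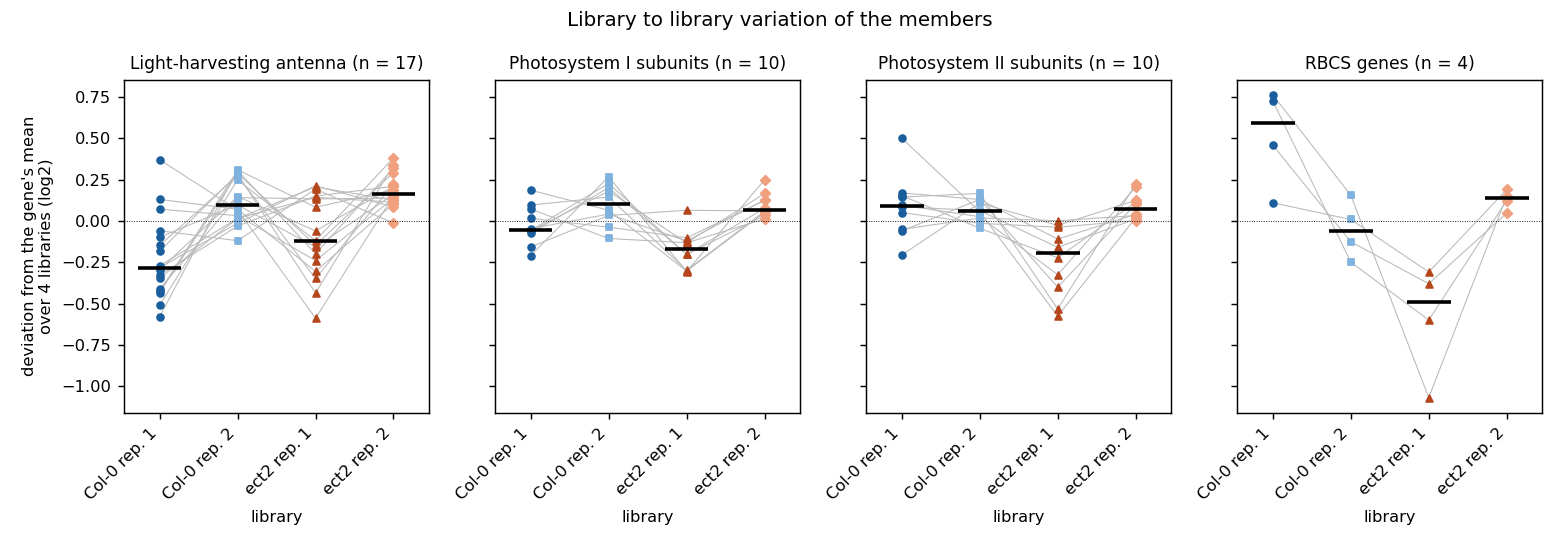
Deviation of each gene from its own mean over the 4 libraries (log2 scale), by library and function; grey lines join a gene, and black bars are medians. The *RBCS* median runs from 0.59 in Col-0 replicate 1 to -0.49 in *ect2* replicate 1, and the antenna median is lowest, at -0.28, in Col-0 replicate 1.

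Each gene was also set against its own mean over the 4 libraries. The median deviation of the antenna genes was -0.28 and 0.097 in Col-0 and -0.12 and 0.16 in *ect2* (log2, replicates 1 and 2). For *RBCS* it was 0.59 and -0.059 in Col-0 and -0.49 and 0.14 in *ect2*. By FPKM, 27 of the 41 genes were lowest in *ect2* replicate 1, 13 in Col-0 replicate 1 and 1 in Col-0 replicate 2. The nuclear protein-coding total was also lowest in *ect2* replicate 1, at 1.48e+06 FPKM. As a share of that total, the 41 genes together were highest there, at 14.5%. The ratio of summed antenna to summed *RBCS* FPKM was 3.76 and 6.49 in Col-0 and 7.98 and 6.02 in *ect2*. The extremes were thus the replicate 1 libraries, with the replicate 2 libraries close together between them. As a share of nuclear protein-coding FPKM, antenna genes took 7.01% and 7.63% in Col-0 and 9.01% and 7.77% in *ect2*, so both *ect2* libraries were higher. Photosystem I genes took 2.14% and 2.097% in Col-0 and 2.093% and 2.02% in *ect2*. Both *ect2* libraries were thus lower, replicate 1 only just. Photosystem II genes took between 2.12% and 2.44%, with overlapping genotypes. By share, both photosystem groups were lowest in *ect2* replicate 2, whereas by FPKM most of their genes were lowest in *ect2* replicate 1. *RBCS* genes took 1.86% and 1.18% in Col-0 and 1.13% and 1.29% in *ect2*. In whole seedlings, a lower share of leaf cells and less RNA per leaf cell cannot be told apart.

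**Figure D4:**
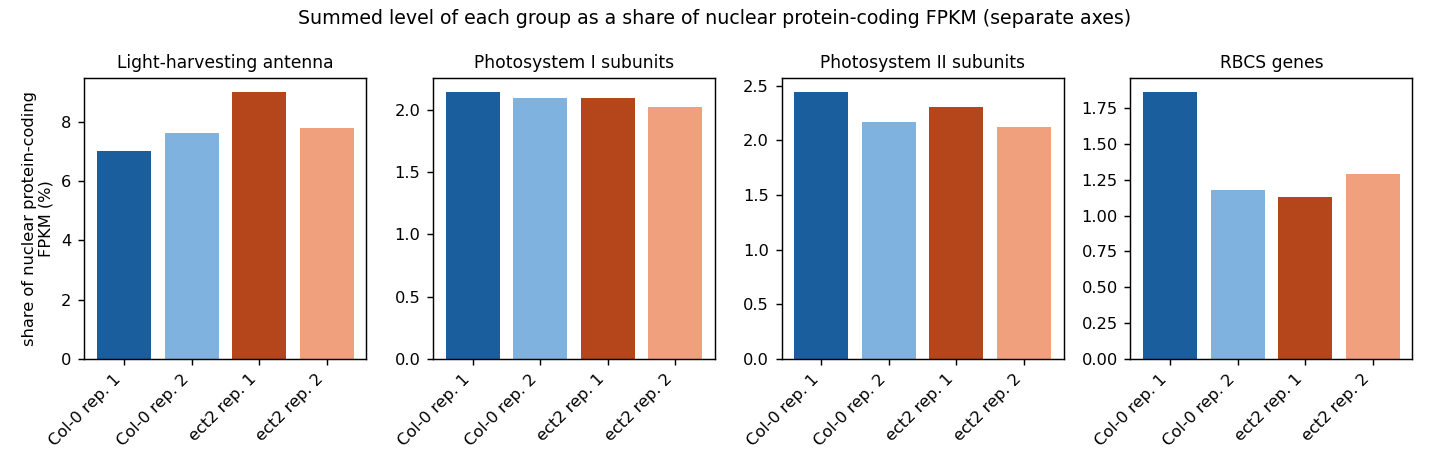
Summed FPKM of each group as a percentage of all nuclear protein-coding FPKM, 1 bar per library, each panel on its own axis from 0. Antenna genes reach 9.01% in *ect2* replicate 1 and *RBCS* genes 1.86% in Col-0 replicate 1, while photosystem I genes stay between 2.02% and 2.14%.

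The summed seed and starvation markers set Col-0 replicate 1 apart from the other libraries. The 9 seed storage and oil body genes summed to 294 FPKM there and to between 6.87 and 10.8 FPKM in the other libraries. Of these, *SESA1*, *SESA3*, *SESA4* and *CRU2* were at 0 in Col-0 replicate 2 and *SESA4* also in *ect2* replicate 1. The 7 genes induced by sugar starvation or darkness summed to 181 and 2054 FPKM in Col-0 replicates 1 and 2. In *ect2* they summed to 3270 and 1883 FPKM, with *DIN2* at 0 in replicate 2. All 6 tested starvation genes were higher in *ect2*, with a median log2 difference of 1.61 and 0 called. In 4 of the 6 both *ect2* libraries lay above both Col-0 libraries, against 17.5% of all genes tested. They lay below in 0, against 20.2%. The 7 touch genes summed to 334 and 2873 FPKM in Col-0 against 1263 and 2032 FPKM in *ect2*, but *TCH2*, *ZAT10* and *ZAT12* were lowest in *ect2* replicate 1. The 19 root markers, none at 0, summed to 169 and 217 FPKM in Col-0 against 213 and 184 FPKM in *ect2*. *CASP1* alone had 65.6 and 104 FPKM in Col-0 against 71.3 and 71.0 FPKM in *ect2*. By gene, 13 of the 18 tested root markers were higher in *ect2* and 5 lower, with a median log2 difference of 0.14 and 0 called. Both *ect2* libraries lay above both Col-0 libraries in 4, against 17.5% of all genes tested, and below them in 0, against 20.2%. The 6 shoot meristem and leaf epidermis markers, also none at 0, summed to between 45.3 and 50.1 FPKM. Of these, 3 were higher in *ect2* and 3 lower, with 0 called. Both *ect2* libraries lay above both Col-0 libraries in 1 and below them in 2. So the library with the fewest starvation transcripts had the most *RBCS* and the least antenna mRNA, and the library with the most starvation transcripts had the least *RBCS*. That last library, *ect2* replicate 1, did not have the most antenna FPKM. Its sum was 133296, below 137667 in Col-0 replicate 2 and 144239 in *ect2* replicate 2, though its antenna share was highest, at 9.01%. The part of these states in the member results was not tested.

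The rest of the pathway was read from lists chosen by function. Of the 13 Calvin cycle genes, 13 had a lower mean in *ect2*, with a median log2 difference of -0.22, and 0 passed the test (limma, lowest adjusted p 0.842). Rubisco activase *RCA* (AT2G39730) had 2653 and 1838 FPKM in the Col-0 libraries, then 1820 and 2542 FPKM in the *ect2* libraries. *GAPA1* (AT3G26650), a subunit of the photosynthetic glyceraldehyde phosphate dehydrogenase, measured 1991 and 1136 FPKM in Col-0 against 1490 and 1293 FPKM in *ect2*. *FBA2* (AT4G38970), a plastid aldolase, had 1997 and 1040 FPKM in the Col-0 libraries, then 1197 and 1272 FPKM in the *ect2* libraries. Like 3 of the 4 *RBCS* genes, all 3 were highest in Col-0 replicate 1. The median of the list was -0.091 with quantile normalization, 0.082 without Col-0 replicate 1 and -0.53 without Col-0 replicate 2. Of 11 electron transport and ATP synthase genes, 9 were lower, with a median of -0.14 and 0 called. That median was -0.044 with quantile normalization and between -0.24 and -0.0072 with a library left out, nearest to 0 without Col-0 replicate 1. Plastocyanin *PETE2* (AT1G20340) measured 4654 and 4080 FPKM in Col-0 against 3411 and 4583 FPKM in *ect2*. Ferredoxin *FD2* (AT1G60950) had 2602 and 2008 FPKM in Col-0 against 1252 and 2410 FPKM in *ect2*. Like most photosystem genes, *PETE2* and *FD2* were lowest by FPKM in *ect2* replicate 1. *PETM* (AT2G26500), of the cytochrome b6f complex, had 2197 and 1854 FPKM in the Col-0 libraries, then 1840 and 2168 FPKM in the *ect2* libraries.

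Of 13 chlorophyll synthesis genes, 9 were lower in *ect2*, with a median of -0.15 and 0 called. The median ran from -0.22 without *ect2* replicate 2 to -0.066 without *ect2* replicate 1. Both *ect2* libraries lay below both Col-0 libraries in 4 of the 13, against 20.2% of all genes tested. They lay above them in 1, against 17.5%. *CRD1* (AT3G56940), of the cyclase step, measured 953 and 989 FPKM in Col-0 against 1038 and 1026 FPKM in *ect2*. *PORB* (AT4G27440), a protochlorophyllide reductase, had 607 and 979 FPKM in the Col-0 libraries, then 895 and 883 FPKM in the *ect2* libraries. *CHLM* (AT4G25080), the magnesium protoporphyrin methyltransferase, measured 314 and 326 FPKM in Col-0 against 318 and 317 FPKM in *ect2*. Both *ect2* libraries lay above Col-0 in *CRD1*, and the genotypes overlapped in *PORB* and *CHLM*. Of 8 photosystem family genes outside the 41, 6 were lower, with a median of -0.17 and 0 called. *PSBTN* (AT3G21055) had 4053 and 3253 FPKM in the Col-0 libraries, then 2323 and 2901 FPKM in the *ect2* libraries, without overlap. *PSAE2* (AT2G20260), the copy of *PSAE-1*, had 1505 and 1883 FPKM in Col-0 against 1545 and 1605 FPKM in *ect2*. *PSAH1* (AT3G16140), the copy of *PSAH2*, had 1459 and 1984 FPKM in Col-0 against 1248 and 1735.41 FPKM in *ect2*, and in both copies the genotypes overlapped. *LHCB4.3* (AT2G40100), chosen after its values were seen, had 36.8 and 17.4 FPKM in Col-0 against 11.2 and 8.31 FPKM in *ect2*, without overlap. Its log2 difference was -1.31 ± 0.40 (SE; limma, unadjusted p = 0.0198, adjusted p = 0.842).

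Among 11 regulators of these genes, 7 were lower in *ect2*, with a median of -0.36 and 0 called. *GLK2* (AT5G44190), which activates antenna and chlorophyll genes, measured 98.8 and 71.4 FPKM in Col-0 against 59.1 and 65.9 FPKM in *ect2*, with no overlap. Its log2 difference was -0.42 ± 0.25 (SE; limma, adjusted p = 0.842). Its homologue *GLK1* (AT2G20570) had 95.3 and 29.2 FPKM in the Col-0 libraries, then 34.5 and 37.8 FPKM in the *ect2* libraries, so a single library stood high. *GUN1* (AT2G31400), of chloroplast to nucleus signalling, was likewise high in that library, at 60.1 FPKM beside 31.9, 35.2 and 32.6 FPKM. *HYH* (AT3G17609), a homologue of the light-signalling factor *HY5* and also chosen after its values were seen, had 10.8 and 6.15 FPKM in Col-0 against 2.03 and 2.87 FPKM in *ect2*, without overlap. Its log2 difference was -1.42 ± 0.32, with a 95% interval from -2.23 to -0.62 (SE; limma, unadjusted p = 0.00537, adjusted p = 0.842). The 7 plastid-encoded partners, whose mRNAs oligo(dT) selection is known to capture poorly, had 4 positive differences and a median of 0.029. That median fell to -0.0046 with library medians set equal and ranged from -0.55 to 0.57 with a library left out. The Rubisco large subunit gene *rbcL* measured 444 and 831 FPKM in Col-0 against 749 and 580 FPKM in *ect2*, lowest in the library where *RBCS* was highest. *psbA*, for a reaction centre protein of photosystem II, had 1018 and 2922 FPKM in the Col-0 libraries, then 1950 and 2355 FPKM in the *ect2* libraries. *psbC*, for a core antenna protein of photosystem II, had 202 and 512 FPKM in Col-0 against 332 and 325 FPKM in *ect2*, and both were lowest in Col-0 replicate 1.

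**Figure D5:**
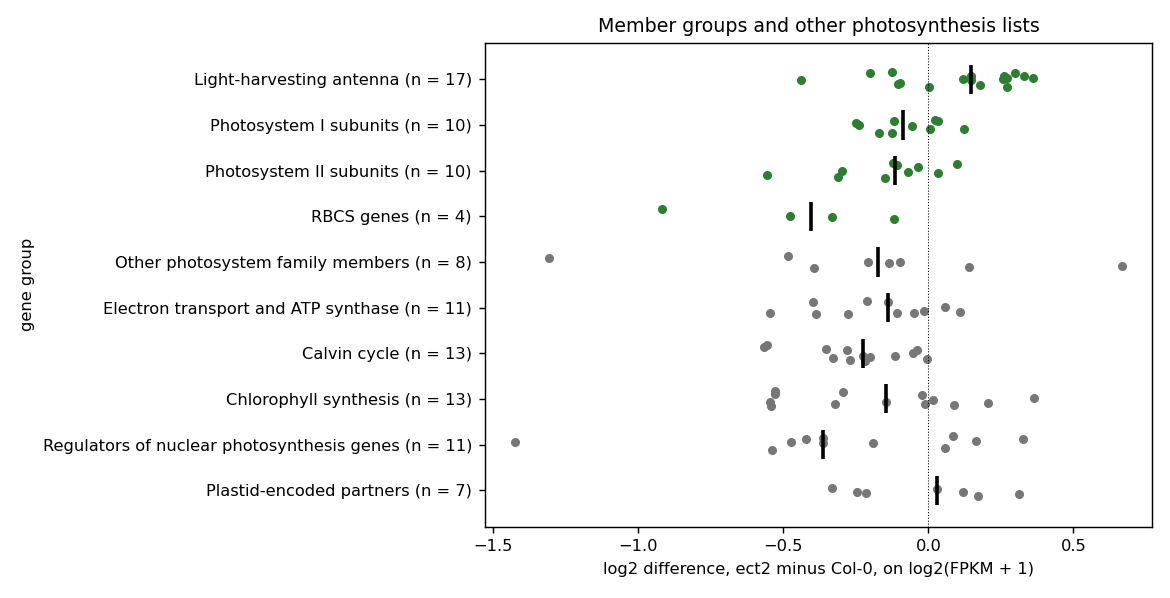
Log2 difference between *ect2* and Col-0 of each tested gene in the 4 member groups (green) and in 6 other photosynthesis lists (grey); each point is a gene, spread vertically at random, and black bars are medians. The antenna median is 0.15, the *RBCS* median -0.40 and the Calvin cycle median -0.22.

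The 3′ UTRs of the members were searched for the motif reported for ECT2 binding, written in DNA letters as TGTAT or TGTAC and likewise TATAT or TATAC. At least 1 was found in 35 of 41 members (85.4%), beside 86.2% of 18144 tested genes with an annotated nuclear 3′ UTR. The forms that begin with TGTA alone were found in 33 of 41 members (80.5%), beside 68.8% of those genes. The median 3′ UTR measured 263 nt in the members and 280 nt over those genes. Counted over all letters, there were 8.06 occurrences per kilobase in antenna 3′ UTRs, 12.98 in photosystem I, 12.7 in photosystem II and 2.84 in *RBCS*, beside 8.69 over all. *RBCS1A* and *RBCS2B* held none, and neither did *LHCB3*, *LHCB6*, *PSAD-1* and *PSBQ-1*. The annotated 3′ UTR of *RBCS1B* is 1183 nt long, against 296 to 328 nt in the other *RBCS* genes.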

How the data were processed

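Polyadenylated RNA was sequenced from 4 libraries. Cutadapt, TopHat and the build TAIR10 are named, per the submitters' processing notes, with no versions. The quantifier and annotation release were not given in the sources used. 1 table per library was deposited by the authors, with values taken to be FPKM. That unit is inferred from a Cufflinks-style identifier column and from column sums, which exceed what TPM allows and are unequal. Total reads are not given, so precision rests on the spread between libraries.

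The test was limma 3.58.1 (R 4.3.3; intensity trend, robust) on log2(FPKM + 1), a scale that understates changes of low genes. Its standard errors, intervals and p-values are moderated, with each gene's variance drawn towards a trend over all genes. A printed SE is thus not the spread of that gene's libraries alone. It covered the 19308 genes that reached 1 FPKM in 2 or more libraries. Two-sided p-values had Benjamini-Hochberg adjustment across that whole set, with 0.05 as the threshold. The procedure was tested on simulated data. As alternatives, the fit was repeated with each library left out, with a replicate block, with unweighted TMM factors divided out of the FPKM, with equal medians, quantile normalization or organelle genes removed, and with pseudocounts of 0.1 and 5, other minimums, and limma without trend. Members and lists were chosen by function with earlier results of these data known. The text names all members, *ECT2* and, per other list, up to 3 genes of highest mean FPKM and any called gene. *LHCB4.3*, *HYH* and single marker genes were named after their values were seen. Gene models and sequences are from RefSeq, TAIR10.1, taking each gene's longest coding transcript, and coding sequences were aligned globally with biopython 1.88.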

Additional observations from a re-analysis of the deposited data

How the results depend on the processing

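No member was called under any alternative run. Leaving out a library leaves 1 in its genotype, which is then assumed to vary like the 2 of the other, so 0 calls in those fits say nothing about stability. Over all genes, 5 calls became 175 with organelle genes removed and totals set equal, and 0 to 520 with a library left out. Omitting replicate 1 of Col-0 gave 11 and omitting replicate 2 gave 520. Omitting replicate 1 or 2 of *ect2* gave 0 (limma), where 284 and 431 genes had an unadjusted p below 0.05. The replicate block gave 6 calls over all genes and 0 members, and changed no member's call. Same-numbered libraries deviated with a correlation of 0.014 across 19308 genes and of -0.35 across the 41 members. With 2 pairs only, these libraries share no more than a number. The cause of these shifts was not tested.

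With a library left out, the median log2 difference ran from -0.096 to 0.40 in antenna genes, -0.23 to 0.067 in photosystem I, -0.26 to 0.027 in photosystem II, -0.051 to 0.46 in *LHCA*, 0.15 to 0.51 in *LHCB1*, -0.49 to 0.16 in *LHCB2*, -0.53 to 0.082 in Calvin cycle genes, -0.24 to -0.0072 in electron transport, -0.22 to -0.066 in chlorophyll synthesis, -0.34 to -0.062 in the other family members, -0.40 to -0.19 in regulators and -0.55 to 0.57 in plastid-encoded partners. The regulator median was -0.10 with a pseudocount of 5. Single members changed sign as follows. With equal medians, *LHCA2* was at -0.032, *PSAD-2* at -0.012, *PSAF* at -0.028 and *PSBR* at -0.00044. With quantile normalization, *LHCB4.1* was at 0.049, *PSAE-1* at 0.025, *PSAF* at -0.048, *PSAL* at 0.035, *PSAO* at 0.049 and *PSBO1* at 0.080. With a library left out, differences ran over these ranges: *LHCA1* -0.24 to 0.49, *LHCA2* -0.16 to 0.16, *LHCA4* -0.0058 to 0.55, *LHCB1.4* -0.17 to 0.71, *LHCB1.5* -0.21 to 0.51, *LHCB2.1* -0.41 to 0.16, *LHCB2.2* -0.49 to 0.29, *LHCB3* -0.073 to 0.37, *LHCB4.1* -0.29 to 0.085, *LHCB4.2* -0.12 to 0.64, *LHCB6* -0.41 to 0.0040, *PSAD-2* -0.091 to 0.13, *PSAF* -0.12 to 0.13, *PSAG* -0.11 to 0.18, *PSAL* -0.27 to 0.012, *PSAO* -0.33 to 0.22, *PSBO2* -0.28 to 0.059, *PSBQ-2* -0.060 to 0.25, *PSBR* -0.00095 to 0.067, *PSBW* -0.16 to 0.026, *PSBX* -0.69 to 0.067, *PSBY* -0.39 to 0.14, *RBCS1B* -0.96 to 0.011, *RBCS3B* -0.37 to 0.13. The number of reads per library is unknown, and depth was only estimated relative to Col-0 replicate 2. With 2 libraries per genotype, precision is limited to the intervals given.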
